A study of Mus musculus with 4 samples.

Results

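The contractile apparatus of smooth muscle and its actin cytoskeleton were followed through 40 genes, listed by symbol: actins, myosins, thin filament regulators, crosslinkers, intermediate filaments and the transcription factors that drive them. Each of the 40 had a row on the array that the annotation assigned to that symbol alone, out of 22180 genes in all. Of the 40, 39 passed the filter on dim genes and entered the test over 12550 genes, and Actc1, the cardiac actin, did not. RNA came from primary vascular smooth muscle cells (VSMCs) of mouse thoracic aorta; such cells contract to set the calibre of arteries. The knockout group was SM22α-Cre(+)Mmp14(fl/fl)Apoe(−/−) and the control group SM22α-Cre(−)Mmp14(fl/fl)Apoe(−/−), with 2 arrays each. All mice therefore lacked Apoe, carried floxed Mmp14 and ate a Western diet for 3 months. Mmp14 encodes MT1-MMP, a membrane-anchored collagenase, and was deleted in vivo by a Cre recombinase under the SM22α promoter. That promoter belongs to Tagln, which is among the 40 genes, so deletion depended on a smooth muscle gene being active. The labels give no age. Adventitia was stripped, the cells were released with collagenase and cultured for 5 days with serum, and 10 ng of RNA was amplified for Mouse Gene ST 2.1 strips. According to the design text the mice formed 2 separate pairs, and p-values measure the spread between cultures and arrays together.

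Smooth muscle cells shorten when myosin, activated by phosphorylation of its light chain, pulls on filaments of alpha and gamma smooth muscle actin. Many of the genes involved carry CArG boxes, short DNA elements bound by serum response factor (SRF), and SRF activates them together with myocardin or the actin-regulated myocardin-related factors. In culture, and in atherosclerotic vessels, VSMCs can lose this contractile programme, a switch in which the transcription factor Klf4 is known to take part.

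The upstream sequences show how these elements lie in some of the genes described below. Acta2 and Myl9 varied between cultures within each group, and their groups overlapped. Acta1 is the actin with the lowest knockout mean relative to control, and Srf itself is also shown. The sequences are the 250 bases before the RefSeq transcript start (build GRCm38.p6), 5′ to 3′. Capitals mark CArG boxes, and CArG-like boxes in which 1 of the 6 central bases is neither A nor T.
Acta2, chr19:34255374-34255623, minus strand: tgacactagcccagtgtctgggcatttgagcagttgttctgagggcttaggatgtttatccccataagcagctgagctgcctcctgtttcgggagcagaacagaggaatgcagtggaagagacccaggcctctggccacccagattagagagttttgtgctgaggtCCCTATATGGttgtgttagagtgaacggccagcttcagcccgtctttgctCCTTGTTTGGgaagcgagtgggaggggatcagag
Acta1, chr8:123894776-123895025, minus strand: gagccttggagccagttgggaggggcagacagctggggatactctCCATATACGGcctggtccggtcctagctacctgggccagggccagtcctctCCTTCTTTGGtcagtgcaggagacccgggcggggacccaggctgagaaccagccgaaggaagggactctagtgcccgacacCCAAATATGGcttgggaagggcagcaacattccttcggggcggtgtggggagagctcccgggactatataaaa
Myl9, chr2:156775214-156775463, plus strand: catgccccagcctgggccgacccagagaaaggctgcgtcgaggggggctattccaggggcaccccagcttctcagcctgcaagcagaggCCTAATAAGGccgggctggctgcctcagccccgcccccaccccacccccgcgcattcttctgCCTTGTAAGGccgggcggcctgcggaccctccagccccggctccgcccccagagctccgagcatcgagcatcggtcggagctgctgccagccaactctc
Srf, chr17:46556163-46556412, minus strand: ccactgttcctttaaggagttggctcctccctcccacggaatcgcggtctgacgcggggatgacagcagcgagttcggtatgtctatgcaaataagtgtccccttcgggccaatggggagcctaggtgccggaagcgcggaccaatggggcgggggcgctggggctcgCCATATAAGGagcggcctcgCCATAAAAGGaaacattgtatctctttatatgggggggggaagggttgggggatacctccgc
In this window Acta2 held 2 CArG-like boxes and no exact CArG box, Srf held 2 exact boxes, and Myl9 had 1 of each kind. Acta1 held 1 exact and 2 CArG-like boxes. RefSeq windows, which run from 250 bases before to 50 bases after a start, were given for 35 of the 40 genes. The others were Actg2, Myh11, Tagln, Csrp2 and Myocd. An exact CArG box lay in the windows of 7 of these 35 genes, namely Actc1, Acta1, Myl6, Myl9, Cnn2, Srf and Ldb3, against 1.81% of 27025 genes with a window. CArG-like boxes lay in 4 of the 35 (11.4%), against 9.69% of all genes. The hexamer CATTCC, bound by TEAD factors and read on both strands, lay in 14 of the 35, against 16.6% of all genes. These matches describe letters in a window and not binding.

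Mmp14 itself read 8.27 and 8.19 (log2) in the knockout arrays, against 8.71 and 9.05 in the control arrays, a difference of -0.65 (limma adjusted p = 0.319). Both knockout arrays lay below both controls. Array medians over 41345 rows ran from 3.01 to 3.05, and precision is set by the number of arrays: 2 against 2 cannot give an exact two-sided permutation p below 0.333. Rows with a mean over the 4 arrays below 3.02, the median of all rows, were not tested. All levels below are log2 expression values, and all differences are knockout minus control on that scale.

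The 8 smooth muscle identity genes (Acta2, Myh11, Tagln, Cnn1, Smtn, Des, Lmod1 and Myocd) had a mean level of 6.87 and 6.37 in the knockout arrays, against 6.73 and 6.49 in the control arrays, so the controls lay between the knockouts. Among members with a difference of at least 0.5 and no overlap, Actg2 had higher values in both knockout arrays, and Acta1, Myh10, Klf4, Hspb1, Smtn and Ppp1r14a lower ones. No member passed the test over all genes: 0 of 39 had a limma adjusted p under 0.05, where the share over all 12550 genes was 0%. The smallest adjusted p among the members was 0.335. At an unadjusted p under 0.05 there were 5 members (12.8%), 1 higher and 4 lower, and the same held for 11.7% of all genes tested (4.89% higher and 6.78% lower). The median difference of the 39 members was -0.11, beside -0.052 for all genes tested. The difference was below 0 for 28 of the 39 (71.8%), against 58.3% of all genes. In 27 members it was smaller than 0.25 in size.

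**Figure D1:**
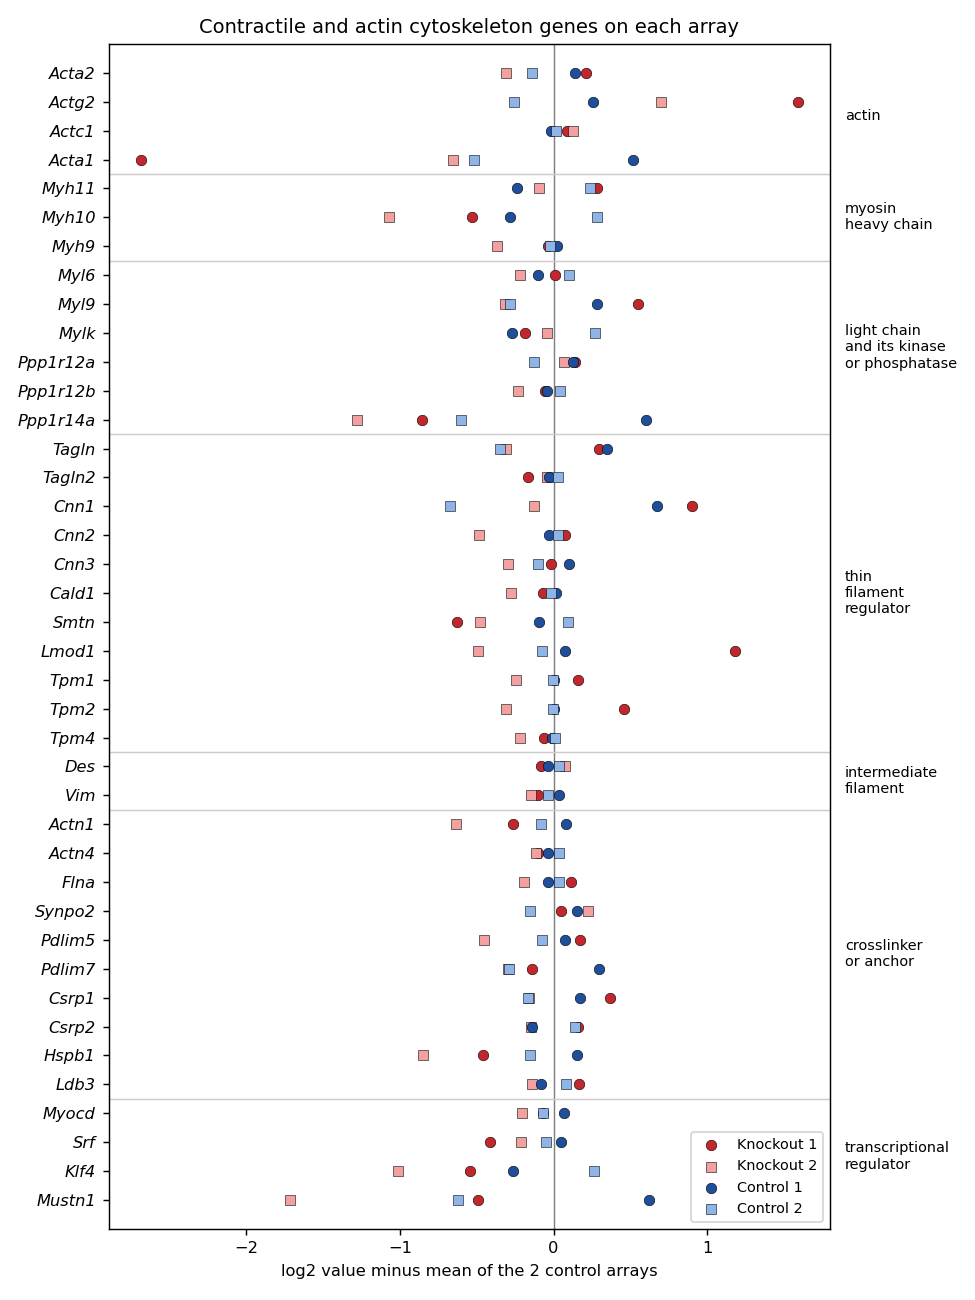
Each row is a gene, grouped by role, and each point an array; the horizontal axis is the log2 value minus the mean of the 2 control arrays. Knockout 2 (light red squares) is the lowest point for 26 of the 39 members tested, and Actg2 and Acta1 hold the points farthest to the right and left.

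Groups did not overlap for 17 members (43.6%), against 44.3% of all genes tested. The direction was uneven: 16 members (41.0%) lay wholly below, against 27.5% of all genes, and 1 (2.56%) wholly above, against 16.7%. A lone array overlaps less often by construction, so counts with an array left out have their own background. Without knockout replicate 1, 30 members lay wholly below (76.9%), against 41.4% of all genes. Without knockout replicate 2 it was 17 (43.6%), against 43.4%. Of the 16, 8 differed by less than 0.25, among them the abundant cytoskeletal genes Vim, Tpm4, Actn4 and Myh9. Smtn, Tagln2, Tpm4 and Vim each have a second row on the array, and in all 4 of these second rows the groups overlapped. Hspb1, also among the 16, has a second row too, and there both knockout arrays lay below both controls. With a difference of at least 0.5 there were 7 members without overlap (17.9%), against 11.7% of all genes, 1 higher and 6 lower. In bulk cultures, fewer cells of a type and less RNA per cell cannot be told apart.

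Actg2, the gamma actin of enteric smooth muscle, was the member that stood higher. It read 9.43 and 8.54 in the knockout arrays, against 8.10 and 7.59 in the control arrays. Both knockout arrays lay above both controls. Means were 8.99 ± 0.63 in knockout and 7.84 ± 0.37 in control (SD, n = 2 each), a difference of 1.14 (SE 0.36, 95% interval 0.20 to 2.08) or 2.21-fold, with a limma adjusted p of 0.364. Within each group array 1 read above array 2, by 0.89 in knockout and 0.52 in control.

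Acta2, the alpha actin that forms most of the contractile filaments of arterial smooth muscle, did not share that difference. It read 11.40 and 10.89 in knockout and 11.33 and 11.05 in control arrays. The groups overlapped, with the controls between the knockouts. The difference was -0.047, and its 95% interval of -0.66 to 0.56 spans 0.635 to 1.48 times the control level. The sign turned when knockout replicate 2 (0.21) or control replicate 1 (0.096) was left out.

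Acta1, the alpha actin of skeletal muscle, had the largest difference among the members and also the widest spread. Its values were 5.55 and 7.58 in knockout and 8.75 and 7.72 in control arrays. Knockout 2 lay only just under control 2, and knockout 1 far below all others. The difference was -1.67 (SE 0.75, 95% interval -3.63 to 0.29; limma adjusted p = 0.485). It shrank to -0.66 when knockout replicate 1 was left out, and was -2.68 when knockout replicate 2 was. Actc1 averaged 2.50 in knockout and 2.40 in control arrays, both under the filter level, and was not tested.

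**Figure D2:**
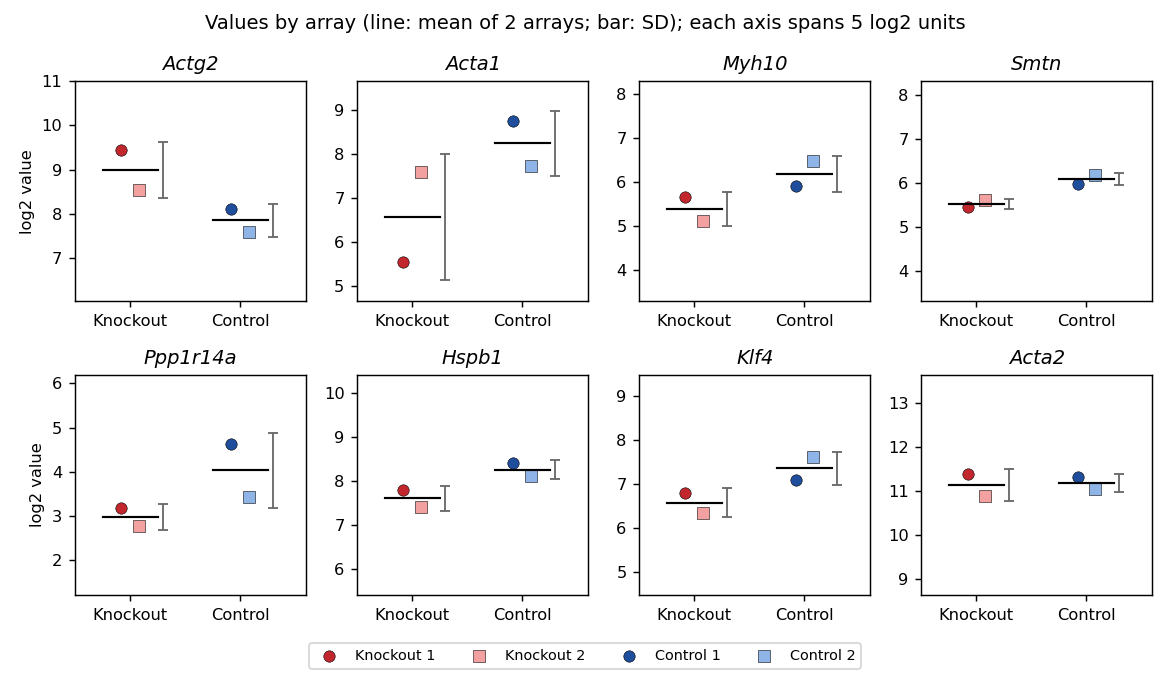
Log2 values on each array for the 7 members whose groups did not overlap and differed by at least 0.5, with Acta2 for comparison; the line is the mean of 2 arrays and the bar the SD. Knockout points lie above the control points for Actg2 and below them for Acta1, Myh10, Smtn, Ppp1r14a, Hspb1 and Klf4, while those of Acta2 enclose the controls.

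Among the myosin heavy chains the largest difference was that of Myh10, a nonmuscle form. Myh11, the heavy chain of the contractile state, read 5.50 and 5.12 in knockout and 4.98 and 5.45 in control arrays, a difference of 0.094 (95% interval -0.53 to 0.71). Its groups overlapped, and the sign turned to -0.14 without control replicate 1 and to -0.096 without knockout replicate 1. Myh10, nonmuscle myosin IIB and often used as a marker of the synthetic state, read 5.65 and 5.11 in knockout and 5.89 and 6.46 in control arrays. Every knockout array lay below every control array, with a difference of -0.80 (SE 0.29, 95% interval -1.55 to -0.048; limma adjusted p = 0.402). Myh9, nonmuscle myosin IIA, differed by -0.20 without overlap, and by -0.037 without knockout replicate 2.

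The myosin light chains and the enzymes that set their phosphorylation showed small differences except for Ppp1r14a. Myl9, the regulatory light chain, read 9.91 and 9.04 in knockout and 9.65 and 9.08 in control arrays, with a difference of 0.11. Its spread within each group exceeded the difference between groups, and leaving out single arrays gave -0.32 to 0.55. Myl6, the essential light chain, differed by -0.10 and Mylk, the light chain kinase, by -0.11 at a level less than 1 log2 unit above the filter. The myosin-targeting subunits of the phosphatase, Ppp1r12a and Ppp1r12b, differed by 0.10 and -0.14, the second without overlap.

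Ppp1r14a encodes CPI-17, an inhibitor of myosin phosphatase. It read 3.18 and 2.76 in knockout and 4.64 and 3.43 in control arrays. The groups did not overlap, but control 1 lay far above the other 3 arrays. The difference of -1.07 (SE 0.44, 95% interval -2.21 to 0.073; limma adjusted p = 0.458) came to -1.67 with control replicate 2 left out and to -0.46 with control replicate 1 left out. The knockout mean of 2.97 was under the filter level.

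Thin filament regulators went both ways, and Smtn had the most even difference among them. Smtn encodes smoothelin, a marker of contractile smooth muscle that the submitters also stained for. It read 5.46 and 5.61 in knockout and 5.99 and 6.18 in control arrays. The gap between groups was wider than the gap between the arrays of either group. The difference was -0.55 (SE 0.15, 95% interval -0.96 to -0.15), which is 0.681 times the level in control cells, and its limma adjusted p of 0.335 was the smallest of all members. A second Smtn row, with lower values, differed by -0.026 with overlap, and the mean of the 2 rows by -0.29.

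Cnn1, calponin, which binds actin and slows the myosin ATPase, read 9.74 and 8.71 in knockout and 9.51 and 8.16 in control arrays. The spread within each group exceeded the difference of 0.39, which had a 95% interval of -1.10 to 1.87 and ran from -0.29 to 1.06 when single arrays were left out. The related calponins Cnn2 and Cnn3 differed by -0.20 and -0.15. Tagln, transgelin (SM22α), read 10.41 and 9.81 in knockout and 10.46 and 9.77 in control arrays. Each group held a high and a low array here too, and the difference was -0.0070. Its 95% interval ran from -0.86 to 0.85, and leaving out single arrays gave -0.36 to 0.34. Tagln2, a relative found in many cell types, differed by -0.10, and its second row by -0.038.

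Lmod1, leiomodin, a nucleator of smooth muscle actin filaments, read 5.69 and 4.02 in knockout and 4.58 and 4.43 in control arrays. Knockout 1 was the highest of the 4 arrays and knockout 2 the lowest, and the difference of 0.35 had a 95% interval of -1.12 to 1.81. It was -0.49 with knockout replicate 1 left out and 1.18 with knockout replicate 2 left out. Cald1, caldesmon, differed by -0.17 without overlap. The tropomyosins, which lie along the actin filament, differed by -0.041 (Tpm1), 0.076 (Tpm2) and -0.14 (Tpm4). The second Tpm4 row differed by -0.085, with overlap.

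The intermediate filament genes were close between groups. Des, desmin, read 3.54 and 3.69 in knockout and 3.58 and 3.65 in control arrays, which puts the controls between the knockouts. These values lie less than 1 log2 unit above the filter level, so its signal in these cultures was low. Vim, vimentin, read 10.81 and 10.77 in knockout and 10.95 and 10.87 in control arrays, a difference of -0.12 without overlap. The second Vim row had a difference of -0.032, and its groups overlapped.

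Among crosslinkers and anchors Hspb1 and Actn1 had the lowest knockout values relative to control. Hspb1, the small heat shock protein HSP27 that binds actin, read 7.80 and 7.40 in knockout and 8.40 and 8.10 in control arrays. Neither knockout array reached the lower control. The difference was -0.65 (SE 0.21, 95% interval -1.20 to -0.11, limma adjusted p = 0.365), and a second Hspb1 row differed by -0.46, also without overlap. Actn1, an alpha actinin that crosslinks actin at adhesions, read 9.81 and 9.43 in knockout and 10.15 and 9.99 in control arrays, a difference of -0.45 (SE 0.19) without overlap. Actn4 differed by -0.11, also without overlap.

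The other 7 genes of this group overlapped between genotypes. Flna, filamin A, differed by -0.036, and the actin-associated PDZ and LIM domain genes Pdlim5 and Pdlim7 by -0.14 and -0.22. Csrp1 and Csrp2, LIM domain proteins of smooth muscle, differed by 0.10 and 0.0063. Synpo2 and Ldb3, which bind the alpha actinins, differed by 0.13 and 0.012, both at levels less than 1 log2 unit above the filter.

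All 4 members grouped as transcriptional regulators had a difference below 0. Klf4, a repressor of smooth muscle genes, read 6.80 and 6.33 in knockout and 7.08 and 7.61 in control arrays. Its groups did not overlap, with a difference of -0.78 (SE 0.26, 95% interval -1.47 to -0.091; limma adjusted p = 0.385). Srf read 5.99 and 6.19 in knockout and 6.45 and 6.35 in control arrays, a difference of -0.31 (SE 0.15, 95% interval -0.70 to 0.082) without overlap. Myocd, which encodes myocardin, read 3.26 and 3.12 in knockout and 3.39 and 3.26 in control arrays, all near the filter level, and differed by -0.14. Knockout 1 lay only just under control 2.

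Mustn1, a small nuclear protein of muscle and skeletal tissue, read 8.70 and 7.48 in knockout and 9.81 and 8.58 in control arrays. Knockout 1 lay above control 2, and the difference was -1.11 (SE 0.58, 95% interval -2.62 to 0.41). Within each group array 1 exceeded array 2 by about the same amount, 1.22 in knockout and 1.24 in control.

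**Figure D3:**
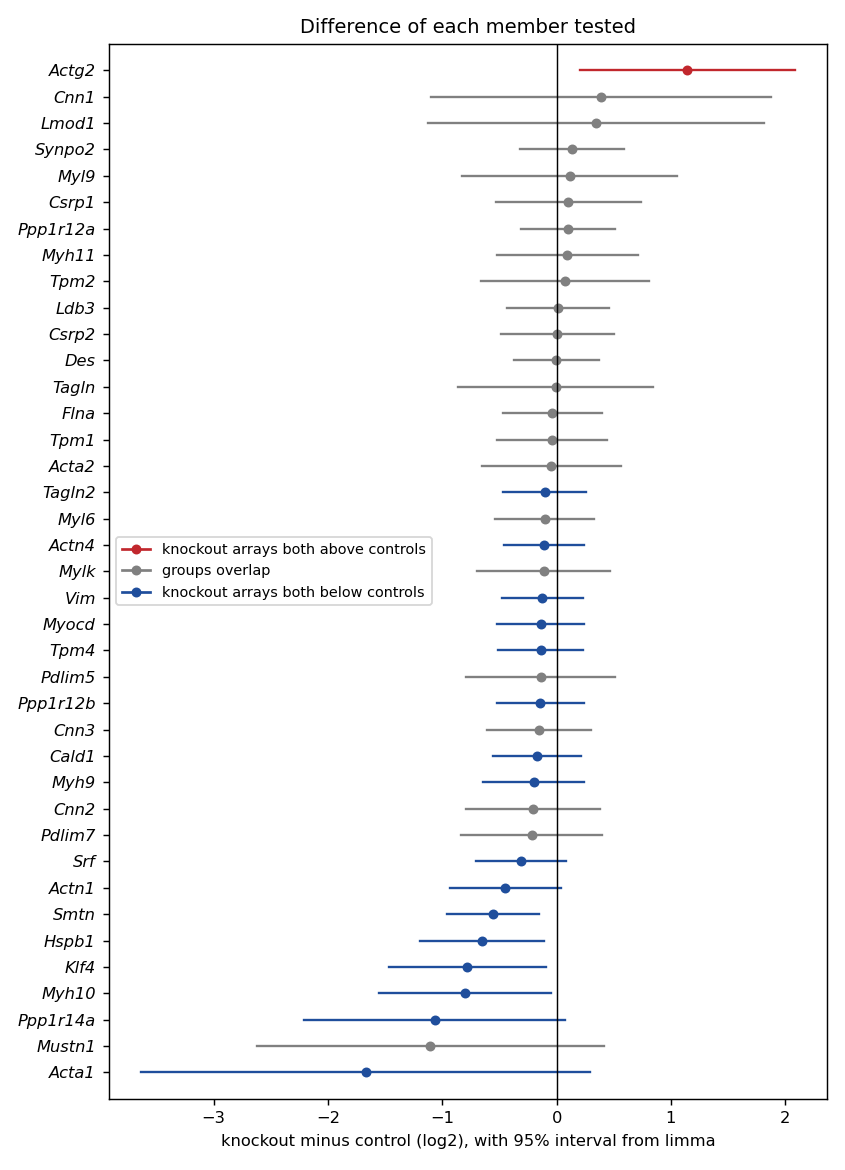
Knockout minus control (log2) for the 39 members tested, with 95% intervals from limma; red marks both knockout arrays above the controls, blue both below, grey overlap. The intervals of 5 members (Actg2, Smtn, Hspb1, Klf4 and Myh10) leave out 0, before any adjustment for the 12550 genes tested.

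The knockout arrays differed from each other in these genes. Knockout 2 was the lowest of the 4 arrays for 26 of 39 members (66.7%), against 28.2% of all genes tested. Knockout 1 was the highest for 15 (38.5%), against 17.8%. For 10 members (25.6%) knockout 1 lay above and knockout 2 below both controls, against 5.62% of all genes. These 10 were Acta2, Myl9, Cnn2, Lmod1, Tpm1, Tpm2, Flna, Pdlim5, Csrp2 and Ldb3. The opposite arrangement was seen in 1 member (2.56%), against 7.47% of all genes. The median difference of the members was -0.24 without knockout replicate 1 and -0.037 without knockout replicate 2.

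Array 1 read above array 2 for 32 of 39 members in knockout (82.1%, against 47.0% of all genes) and for 24 in control (61.5%, against 52.8%). It did so in both genotypes for 21 members (53.8%), against 24.4% of all genes. Outside the members, the contractile and cytoskeletal genes Prkg1, Nexn, Jph2 and Palld shared this order, and Npnt had the reverse in both. How many genes of those lists shared it was not counted. Across the 39 members the gap in knockout and that in control had a correlation of r = 0.089. Across all genes tested it was r = 0.045, and genes are not independent replicates. Acta1, with gaps of -2.03 in knockout and 1.03 in control, lay far from the other members and weighs heavily on the first value. The correlation without Acta1 was not computed. The gap was at least 0.25 in both groups for 9 members (23.1%), against 4.18% of all genes. They were Mustn1, Cnn1, Tagln, Myl9, Actg2, Ppp1r14a, Csrp1, Hspb1 and Acta2. Cnn1, Tagln and Acta2 among them are markers of contractile smooth muscle. Of the other identity genes, Lmod1 and Myocd also had array 1 above array 2 in both groups. Array 1 lay below array 2 in both for Smtn (-0.15 in knockout, -0.19 in control) and Des (-0.15 and -0.069). Myh11 had a gap of 0.38 in knockout and -0.47 in control. For Cnn1 the gap was 1.03 in knockout and 1.35 in control, and for Tagln 0.60 and 0.70. The titles do not say that a number marks a pair. This pattern was seen in the data and was not tested.

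**Figure D4:**
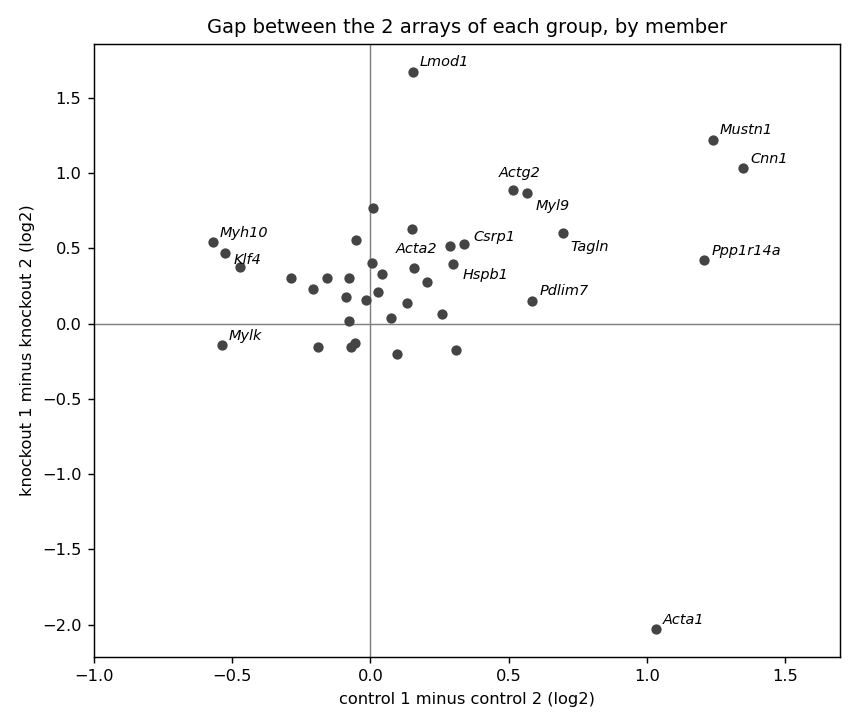
Each point is a member; the vertical axis is knockout 1 minus knockout 2 and the horizontal axis control 1 minus control 2, both in log2 units. Of the 39 members, 21 lie in the upper right, with Mustn1 and Cnn1 more than 1 unit out on both axes and Lmod1 the highest point (1.67), and Acta1 lies apart at the lower right.

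Other genes of the contractile pathway also had no call. Of 16 tested genes of smooth muscle contraction outside the 40, 5 were higher and 11 lower in the knockout arrays, 0 passed the test, and the median was -0.14. Gucy1b1, a subunit of the nitric oxide receptor guanylyl cyclase, read 4.12 and 4.43 in knockout and 6.19 and 5.30 in control arrays, a difference of -1.48 (limma adjusted p = 0.268). Sgcd, delta sarcoglycan, read 4.54 and 4.77 in knockout and 5.70 and 5.71 in control arrays, a difference of -1.05 (limma adjusted p = 0.166). Aoc3, a vascular amine oxidase and among the 5 higher, differed by 1.06, with knockout 1 at 4.58 and the other 3 arrays between 2.46 and 2.82. Those 3 arrays were under the filter level, so Aoc3 was tested only through knockout 1.

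Among 29 tested genes of the general actin cytoskeleton, 12 were higher and 17 lower, 0 passed, and the median was -0.031. Ezr, ezrin, which links actin to the membrane, differed by 0.65, while Enah, an actin elongation factor, differed by -0.62, Flnc, filamin C, by -0.61, and Pdlim1 by -0.44, all 4 without overlap.

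Markers of other cells also stood apart between the groups, although none passed the test over all genes. All 17 tested macrophage markers of 18 listed were higher in the knockout arrays. Of these, 16 lay wholly above, against 16.7% of all genes tested. The mean log2 level of the list was 8.03 and 8.29 in knockout and 7.07 and 7.03 in control arrays. The smallest limma adjusted p in that list was 0.137. An unadjusted limma p under 0.05 was found for 14 of the 17, against 11.7% of all genes tested. Of 13 tested endothelial markers 10 were lower and 3 higher, where 58.3% of all genes tested were lower. Their mean log2 level was 4.04 and 4.10 in knockout and 5.13 and 4.85 in control arrays. Their smallest limma adjusted p was 0.104, also the smallest of all 12550 genes. For 7 of the 13 the unadjusted limma p was under 0.05, against the same 11.7%. Tie1, Esam and Robo4, all among the 10 lower, had knockout means of 3.00, 2.95 and 2.99, under the filter level. They passed the filter only through their control arrays, and Esam is 1 of the 7. The largest differences were 2.08 for Mrc1, the mannose receptor, and -2.88 for Ptprb, an endothelial phosphatase. The 3 higher endothelial markers were Kdr (0.32, without overlap), Vwf (0.29) and Flt1 (0.10), the last 2 with overlap. The myeloid marker Cd163 and the endothelial markers Tek and Cldn5 were under the filter level. Several members, such as Vim, Myh9, Actn1 and Tagln2, are also made by leukocytes and endothelial cells. The part of these cells in the members' differences was not tested.

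Markers of striated muscle, listed because Acta1 belongs to that tissue, were mostly dim: 18 of 30 were under the filter level, including Ckm, Myh1, Myh4, Myog and Actn2. Of the 12 tested, 6 were higher and 6 lower, with a median of -0.024. Tnnt2, a troponin, read 4.32 and 5.02 in knockout and 5.71 and 5.81 in control arrays, a difference of -1.09. Tnnc1, another troponin, differed by -0.64, Tnni2 by 0.56 and Mybpc3 by -0.27. The knockout mean of Mybpc3, 2.98, was under the filter level, and it was tested only through its control arrays. Of 6 tested adventitial fibroblast markers 2 were higher and 4 lower, with Cd34 at -2.40 and Dpt, dermatopontin, at -1.51. The others overlapped between groups: Lum (0.74), Mfap5 (0.037), Pdgfra (-0.29) and Fbln1 (-0.25). Cd34 is also made by endothelial cells. Of 6 mural cell markers 4 were higher and 2 lower, with a median of 0.25. Cspg4, the proteoglycan NG2, differed by -0.96 and was the only one of them without overlap. Plin1 was the only adipocyte marker tested of 6 listed and differed by 0.044.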

How the data were processed

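The authors deposited log2 expression values per transcript cluster for 41345 rows and 4 arrays, and per the submitters' processing notes these were made with RMA. That they are log2 was inferred from their range (1.17 to 12.4). RMA's version, the chip definition and the build were not given in the sources used here. Rows were named through the platform annotation: 23521 had 1 symbol, 1814 several and 16010 were not listed, and all 40 members matched the RefSeq gene table by NCBI gene number. For genes with several rows (5 members) the row with the highest mean was kept.

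Genes with a mean of at least 3.02 entered a linear model of knockout against control with no covariate (limma 3.58.1 under R 4.3.3, lmFit then eBayes), and p-values were adjusted over 12550 genes by Benjamini-Hochberg, with a threshold of 0.05. Intervals are 95% intervals from that fit. The fit was run on simulated data to check its calls and the error of its differences. How often the intervals held the true difference was not checked. Sequencing depth does not apply to arrays.

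The members and gene lists were chosen with earlier results of these data known. Values on each array are given for members without overlap and a difference of at least 0.5, for 8 smooth muscle identity genes, and for Srf and Klf4. From each other list up to 4 genes without overlap are named, most by their difference alone. Further genes of these lists were named after their values were seen. One of those lists is not reported here. Per-array values of Myl9, Vim, Actn1 and Mustn1 were added after their values were seen. Promoter windows are those of RefSeq (GRCm38.p6). The correlation of same-numbered deviations was 0.045 over genes tested. Alternatives were 13 in number. Figures were drawn with matplotlib 3.10.9.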

Additional observations from a re-analysis of the deposited data

How the results depend on the processing

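Under all 13 alternatives limma called 0 members and 0 genes, with adjusted p-values of the members no lower than 0.128, while 3 to 7 members had an unadjusted p under 0.05. Of 499 member differences recomputed, 465 kept their sign and 34 turned it, in 20 of the members, and 19 members kept it throughout, among them Actg2, Acta1, Myh10, Smtn, Ppp1r14a, Hspb1, Klf4, Srf and Mustn1. Leaving out single arrays, where a lone array is assumed to vary like the other group, accounts for 30 of the 34. The differences then ran as follows: Acta2 from -0.31 to 0.21, Cnn1 from -0.29 to 1.06, Cnn2 from -0.48 to 0.075, Csrp1 from -0.16 to 0.37, Csrp2 from -0.15 to 0.16, Des from -0.080 to 0.072, Flna from -0.19 to 0.12, Ldb3 from -0.14 to 0.16, Lmod1 from -0.49 to 1.18, Myh11 from -0.14 to 0.33, Myl6 from -0.22 to 0.0097, Myl9 from -0.32 to 0.55, Mylk from -0.38 to 0.16, Pdlim5 from -0.45 to 0.17, Pdlim7 from -0.51 to 0.074, Ppp1r12a from -0.026 to 0.23, Synpo2 from -0.020 to 0.29, Tagln from -0.36 to 0.34, Tpm1 from -0.24 to 0.16, Tpm2 from -0.31 to 0.46. With a second quantile normalisation Flna became 0.011 and Ldb3 -0.013, and with arrays centred on their median Csrp2 became -0.024 and Ldb3 -0.019. Leaving out single arrays moved the members' median difference between -0.24 and -0.037, the members without overlap between 23 and 33 (59.0% to 84.6%, against 71.0% to 73.5% of all genes with the same arrays left out), and those wholly lower between 17 and 30 (43.6% to 76.9%, against 41.3% to 43.4%). With the title number as a replicate block, 7 members had an unadjusted p under 0.05 and 0 passed, and the smallest adjusted p was 0.128 (Mustn1; 0.139 for Actg2). The pairing rests on the number alone. The Mmp14 difference stayed below 0, from -0.82 to -0.48. With 2 arrays a group, the intervals of 24 members reach past 0.25 on both sides of 0, and the 6 members within 1 log2 unit of the filter level (Myocd, Ldb3, Ppp1r14a, Des, Synpo2 and Mylk) are limited by their low signal.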
